A study of Homo sapiens with 8 samples.

Results

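The monocarboxylate transporters examined here are SLC16A1, SLC16A3, SLC16A7, SLC16A9, SLC16A10, SLC16A13 and SLC16A14, together with basigin (BSG). These 8 genes were listed by name as possible carriers of benzoate-like monocarboxylates and the chaperone of those carriers, not by their measured values. Earlier results of these data were known when the list was made. All 8 have a row among the 14526 genes of the table, so 0 members were without a row. RNA-seq compared 4 control replicates with 4 replicates that received sodium benzoate (SB) at 10 mM for 24 h, and both groups were grown in DMEM with 10% FBS. The cells are labelled HepG2, an established line derived from a human liver carcinoma, with no genetic change named in either group. What the control cells received in place of SB is not given in the sources used here. Expression is given as RPKM, in which reads are divided by gene length and by the size of the library, so that levels can be set side by side between genes.

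With SB, transcripts of the chaperone and of the most abundant transporter were lower and those of most scarcer transporters were higher. BSG fell from 359.6 ± 20.4 to 271.9 ± 8.18 RPKM (SD, n = 4 in each group) and SLC16A1 from 96.6 ± 1.84 to 88.2 ± 1.95 RPKM, whereas SLC16A9 rose from 3.98 ± 0.264 to 6.10 ± 0.193 RPKM. The transporters called higher were SLC16A3, SLC16A7, SLC16A9, SLC16A13 and SLC16A14, and SLC16A10 was not called. The fall of SLC16A1 depended on the scaling of the libraries. With libraries scaled to their total reads alone, SLC16A1 was not called (−0.03, limma adjusted p = 0.490) and SLC16A10 was called higher (0.12, limma adjusted p = 0.0106). The authors' filter kept the row of SLC16A3 only through SB-treated libraries, so its call is a description and not support for a rise. A gene was called with an adjusted p below 0.05 in limma on log2(RPKM + 1), adjusted over all genes. By that rule 7 of the 8 members were called, 5 higher and 2 lower, where 65.6% of all genes in the table were called, 33.0% higher and 32.6% lower. A call by itself therefore says little about these genes, and the sizes and directions below are the description. In RNA from whole cultures, fewer cells that express a gene and less RNA per cell cannot be told apart.

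Monocarboxylate transporters of the SLC16 family move lactate, pyruvate, ketone bodies and related acids across membranes. SLC16A1 (MCT1), SLC16A7 (MCT2), SLC16A8 (MCT3) and SLC16A3 (MCT4) carry the acid together with a proton, so the direction of flow follows the gradients of both. BSG, a glycoprotein of the immunoglobulin superfamily, is needed to bring MCT1 and MCT4 to the plasma membrane, and embigin (EMB) and neuroplastin (NPTN) are related partners. Benzoate is itself a monocarboxylate that MCT1 can carry, and in liver it is activated to benzoyl-CoA and conjugated with glycine. Other family members have different substrates or none assigned.

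Between 36990091 and 44878446 reads per library were recovered from the RPKM values. Control replicate 1 stood apart from the other controls, being the far value of its group for 14.6% of genes against at most 0.620% for any other control replicate, and GC content accounted for 53.8% of the variance across 13290 genes in its difference from them. The log2 fold changes of BSG, SLC16A1, SLC16A9, SLC16A13 and EMB are given with and without it. Other values include it unless stated. The defining genes of hepatocytes were largely missing, with no row for 18 of 20 (ALB, AFP and APOA1 among them). The others, TF among them, summed to between 0.593 and 0.795 RPKM in the controls and between 1.02 and 1.21 RPKM with SB. Of 6 neuronal marker genes 5 had a row, with a summed level of 98.4 to 106 RPKM in the controls and 60.0 to 62.8 RPKM in SB-treated cells, and of 6 fibroblast markers 3 had a row, at 6.13 to 8.32 and 6.07 to 6.29 RPKM. The part of these markers in the results below was not tested.

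Promoters of 6 of the 8 members are in the RefSeq table used here (GRCh38.p14), as 13 promoters in all. SLC16A1 and SLC16A13 have none there. The 250 bases upstream of each start were searched on both strands for the core of the hypoxia response element in its A form (ACGTG) and its G form (GCGTG). They were also searched for the E-box that MYC and its relatives recognise (CACGTG) and for the GC box (GGGCGG). The E-box contains the A form on both strands, so each E-box also counts as 2 matches of it. The 3 sequences below are shown because they are upstream of the member that fell most (BSG), the member that rose most on the log2(RPKM + 1) scale (SLC16A9) and the member with the largest fold by reads (SLC16A3). Of the windows that each of these genes has in the table, the window with the most motif matches was printed. All are written 5′ to 3′ on the strand of the gene, and capitals mark the hypoxia core on either strand. For BSG the stretch ends before the first base annotated as exon.
BSG, chr19:572346-572528, plus strand: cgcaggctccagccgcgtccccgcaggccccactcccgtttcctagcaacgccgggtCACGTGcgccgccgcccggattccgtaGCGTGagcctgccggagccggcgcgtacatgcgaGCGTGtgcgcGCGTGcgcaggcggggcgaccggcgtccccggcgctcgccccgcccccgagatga
SLC16A9, chr10:59710080-59710329, minus strand: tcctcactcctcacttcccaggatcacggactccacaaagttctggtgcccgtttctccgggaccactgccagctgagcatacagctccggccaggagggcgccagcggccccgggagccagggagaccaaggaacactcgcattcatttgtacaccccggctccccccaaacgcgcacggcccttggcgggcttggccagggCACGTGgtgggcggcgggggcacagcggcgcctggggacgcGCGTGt
SLC16A3, chr17:82228792-82229041, plus strand: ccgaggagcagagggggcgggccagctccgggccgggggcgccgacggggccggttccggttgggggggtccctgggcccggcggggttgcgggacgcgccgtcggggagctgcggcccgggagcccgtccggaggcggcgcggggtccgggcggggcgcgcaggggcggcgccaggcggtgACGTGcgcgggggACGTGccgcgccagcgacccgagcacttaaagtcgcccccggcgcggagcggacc
The printed BSG window held an E-box, 4 matches of the G form and 3 GC boxes over its full 250 bases, the last match of the G form lying past the printed stretch. The printed SLC16A9 window held an E-box, 1 match of the G form and 1 GC box. The printed SLC16A3 window held no E-box, 2 matches of the A form and 3 GC boxes. The other BSG window held 0 matches of any of these motifs. The other SLC16A9 window overlaps the printed one and held 1 GC box and 1 match of the G form, which is the same site in both. None of the 4 other SLC16A3 windows held the A form or an E-box. The A form was also found upstream of SLC16A10 and in no promoter of SLC16A7 or SLC16A14. Over all 35116 promoters of the table, 18.5% of the same 250-base windows held the A form, 32.2% the G form, 6.34% the E-box and 42.6% the GC box. An E-box was thus present upstream of a member that fell and of a member that rose, and the matches are a description of letters only.

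BSG (chromosome 19, 571277 to 583494, plus strand, hg38) had the highest level of the 8 genes and the largest fall. The control replicates 1 to 4 stood at 330.2, 371, 375 and 362 RPKM and the SB-treated replicates at 262, 282, 273 and 271 RPKM. Every SB-treated value lay below every control value, and the lowest control was replicate 1. The log2 fold change was −0.40 (SE 0.047, 95% interval −0.51 to −0.30, limma adjusted p = 5.57e-05), and the mean RPKM fell by 24.4%. Without control replicate 1 it was −0.44. On the log2(RPKM + 1) scale 9.99% of the genes in the table had a more negative log2 fold change. That scale shrinks the falls of genes with low levels, so the share could be larger by fold. BSG was also among the most abundant transcripts, with a higher control level than 99.2% of the genes.

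SLC16A1 (chromosome 1, 112911847 to 112957593, minus strand), the transporter found in most tissues, was the other member that fell, and by far less. Its control replicates stood at 98.8, 94.5, 97.0 and 95.8 RPKM and its SB-treated replicates at 90.3, 86.9, 86.2 and 89.3 RPKM. The groups did not overlap, and the gap between the lowest control and the highest SB-treated library was narrow beside the level itself. The mean RPKM fell by 8.68%, with a log2 fold change of −0.13 (SE 0.033, 95% interval −0.20 to −0.06, limma adjusted p = 0.00644), and −0.12 without control replicate 1. This call depended on the scaling of the libraries: when they were scaled to their total reads without TMM factors (the authors' correction for RNA composition), the value was −0.03 with an adjusted p of 0.490, while the median log2 ratio of all genes moved from 0.0039 to 0.109. Rises made up 50.2% of all calls with TMM factors and 65.1% under that scaling.

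The level of SLC16A1 needs its neighbour beside it. SLC16A1-AS1, a long noncoding RNA on the opposite strand that shares 231 exon bases with SLC16A1, stood at 14.2, 14.8, 15.7 and 15.8 RPKM in the controls and at 7.89, 8.16, 7.95 and 8.18 RPKM with SB. The SB-treated values were all well under the controls, with a log2 fold change of −0.83 (SE 0.040, limma adjusted p = 4.39e-07). The length counted for SLC16A1 was 4668 bases, against 6347 in its annotated exons. Whether the shared bases were counted was not examined. The strand setting of the counting is not given in the sources used here, so any reads counted in the shared bases cannot be told apart. The ratio of SLC16A1 to its antisense RNA was 6.39 ± 0.394 in the controls and 11.0 ± 0.342 with SB (SD, n = 4). SLC16A1-AS1 and the neighbour of SLC16A3 below were chosen for their overlap after their values were seen.

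**Figure D1:**
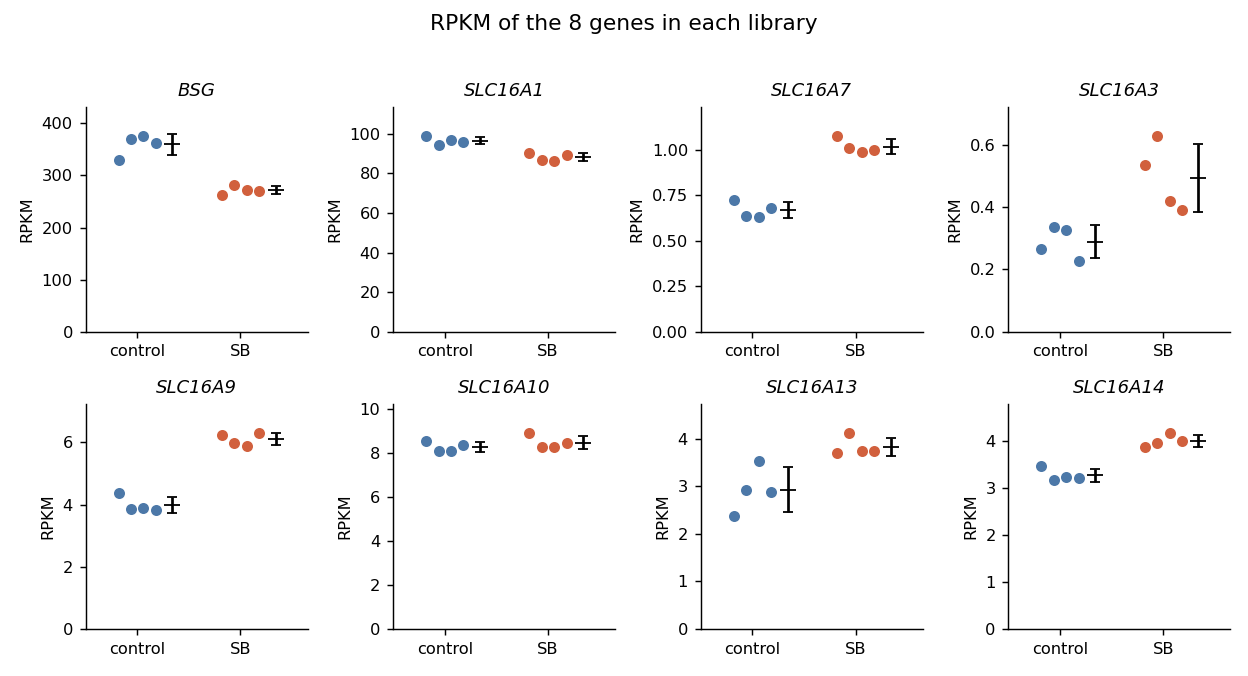
RPKM (vertical axes, each from 0) of the 8 genes in the 4 control and 4 SB-treated libraries, in the order of replicates 1 to 4, with the group mean and SD beside the points. BSG and SLC16A1 lie lower in every SB-treated library, SLC16A10 overlaps between the groups, and the other 5 genes lie higher in every SB-treated library.

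Among the other proton-coupled transporters, SLC16A7 and SLC16A3 both had very low levels that were higher with SB. The row of SLC16A3 was kept only through SB-treated libraries, so its values are a description and not support for a rise. SLC16A7 (chromosome 12, 59596029 to 59789855, plus strand), a carrier with high affinity for pyruvate, stood at 0.723, 0.635, 0.632 and 0.682 RPKM in the controls and at 1.08, 1.01, 0.989 and 0.998 RPKM with SB. The groups were well separated, with an SD of 0.0436 RPKM in the controls and 0.0395 RPKM with SB. SLC16A3 (chromosome 17, 82217934 to 82261129, plus strand), the lactate exporter of glycolytic cells, stood at 0.265, 0.338, 0.327 and 0.227 RPKM in the controls and at 0.535, 0.628, 0.419 and 0.390 RPKM with SB. Its groups did not overlap either, but the SB-treated libraries spread widely and the lowest was close to the highest control.

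At these levels the pseudocount of 1 compresses the change. On log2(RPKM + 1), SLC16A7 rose by 0.27 (SE 0.034, limma adjusted p = 8.08e-05). The log2 fold change of SLC16A3 was 0.21 (SE 0.056, limma adjusted p = 0.00804), as a description because of the filter. On the recovered reads, analysed with voom (limma on weighted log reads), SLC16A7 was 1.52-fold higher (95% interval 1.38 to 1.67) and SLC16A3 1.68-fold higher (1.25 to 2.26). The latter rests on few reads, 28, 33, 29 and 23 in the controls and 51, 62, 44 and 45 with SB, against 16136 to 19636 for SLC16A1. After a correction for GC content and length the log2 fold change of SLC16A7 was 0.15 with the call kept, and that of SLC16A3 was 0.15 with an adjusted p of 0.0503, just past the threshold. The annotated exons of SLC16A3 share 482 bases with CSNK1D on the opposite strand, which was far more abundant. CSNK1D rose from 37.5 ± 2.19 to 43.0 ± 1.05 RPKM. The length counted for SLC16A3 was 2482 bases, against 9236 in its annotated exons. Whether the shared bases were counted was not examined. If they were, reads of SLC16A3 and CSNK1D there cannot be told apart.

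**Figure D2:**
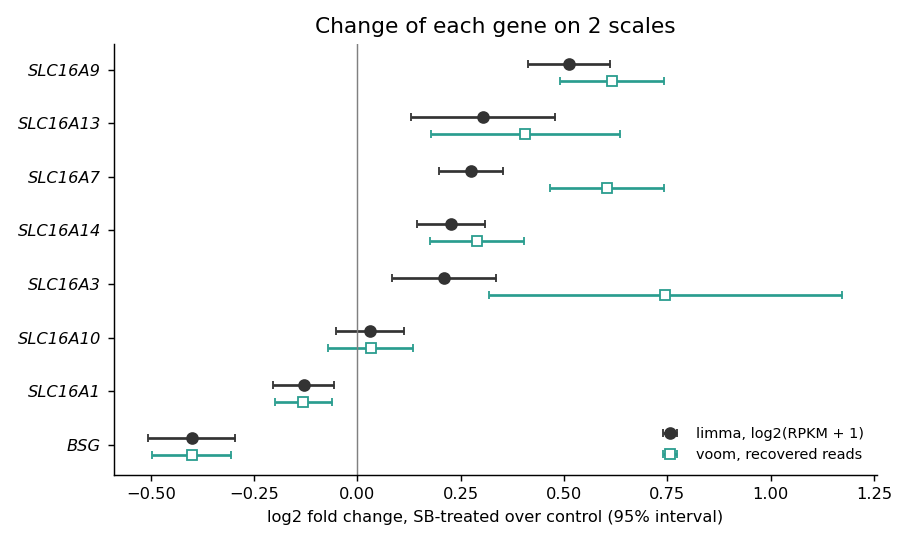
Log2 fold change of SB-treated over control with its 95% interval (horizontal axis) for each gene, by limma on log2(RPKM + 1) (filled circles) and by voom on the recovered reads (open squares). The scales lie farthest apart for SLC16A7 (0.27 and 0.60) and SLC16A3 (0.21 and 0.75), the genes with the lowest RPKM.

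SLC16A9 (chromosome 10, 59650764 to 59736002, minus strand), which carries carnitine, had the largest rise of the members on the log2(RPKM + 1) scale. The controls stood at 4.37, 3.85, 3.88 and 3.81 RPKM and the SB-treated libraries at 6.23, 5.97, 5.89 and 6.29 RPKM. No control came near the SB-treated values, although control replicate 1 was the highest control. The log2 fold change was 0.51 (SE 0.044, 95% interval 0.41 to 0.61, limma adjusted p = 8.26e-06), or 1.53-fold by voom (1.41 to 1.67). It was 0.55 without control replicate 1. Of all genes in the table, 4.76% had a larger log2 fold change on the log2(RPKM + 1) scale.

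SLC16A14 (chromosome 2, 230034982 to 230068993, minus strand), for which no substrate is firmly assigned, rose less. Its controls stood at 3.47, 3.159, 3.24 and 3.20 RPKM and its SB-treated libraries at 3.87, 3.96, 4.16 and 3.99 RPKM. The groups were apart by more than the SD of either, with a log2 fold change of 0.23 (SE 0.037, limma adjusted p = 4.48e-04). SLC16A13 (chromosome 17, 7036015 to 7040117, plus strand) stood at 2.38, 2.92, 3.54 and 2.87 RPKM in the controls and at 3.71, 4.11, 3.75 and 3.74 RPKM with SB. Here the controls were the more scattered group, from replicate 1 as the lowest to replicate 3, which nearly reached the SB-treated libraries. Its log2 fold change was 0.30 (SE 0.078, limma adjusted p = 0.00659), and 0.23 without control replicate 1.

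SLC16A10 (chromosome 6, 111087503 to 111231194, plus strand), which carries aromatic amino acids and thyroid hormone, was the member whose groups overlapped. It stood at 8.53, 8.09, 8.07 and 8.37 RPKM in the controls and at 8.89, 8.25, 8.26 and 8.44 RPKM with SB. Replicate 1 was the highest library in both groups. The log2 fold change was 0.03 with a 95% interval of −0.05 to 0.11 (limma adjusted p = 0.489), and an exact permutation test of 4 against 4 gave a two-sided p of 0.371. The value was 0.12 with an adjusted p of 0.0106 without TMM factors, and 0.13 with an adjusted p of 0.0128 after the GC and length correction. For the other 7 members the exact permutation test gave p = 0.0286, the smallest that 4 against 4 can give. For SLC16A3 this is a description only, because of the filter. Groups did not overlap for 61.5% of all genes in the table.

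**Figure D3:**
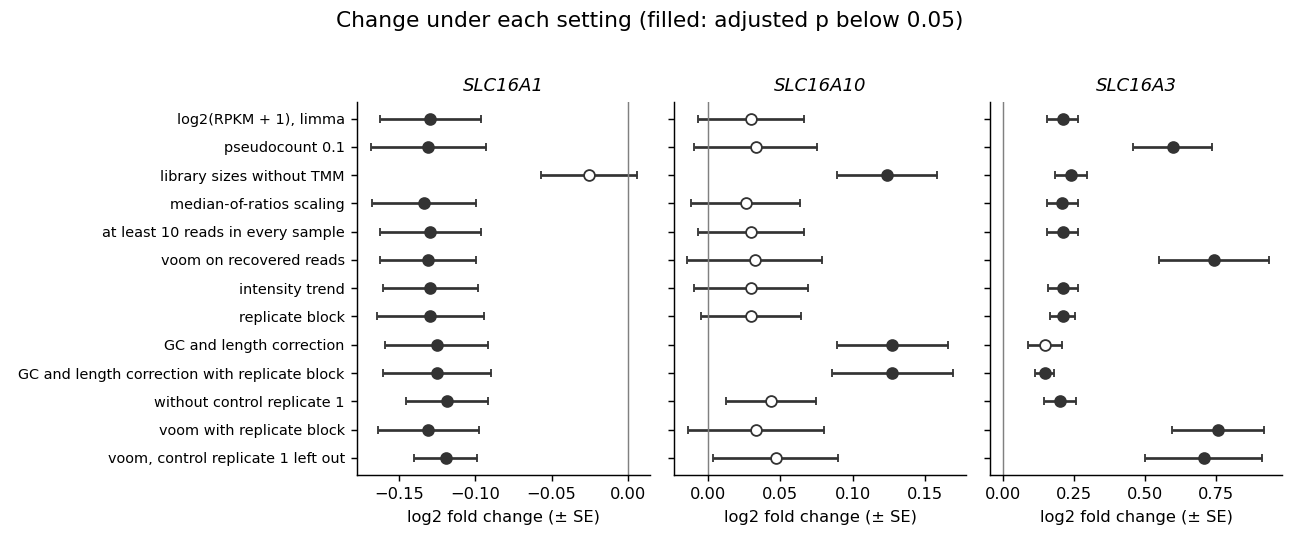
Log2 fold change ± SE (horizontal axes) of SLC16A1, SLC16A10 and SLC16A3, the members whose call changed, under each setting (rows). Filled circles have an adjusted p below 0.05, with SLC16A1 unfilled without TMM factors, SLC16A10 filled without TMM factors and with GC and length corrected, and SLC16A3 unfilled in the GC and length correction without the replicate block.

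The order of the levels in RPKM was the same in both groups. BSG came first, followed by SLC16A1, SLC16A10, SLC16A9, SLC16A14, SLC16A13, SLC16A7 and SLC16A3. The ranges of neighbours in this order did not overlap within a group, apart from SLC16A14 and SLC16A13, whose ranges overlapped in both groups. SLC16A1 exceeded SLC16A10, the next of the 8 genes, by 11.7-fold in the controls and 10.4-fold with SB. SLC16A10 lay near the middle of the table, above 49.9% of genes in the controls, whereas SLC16A3 lay above 3.57%. Low rows are bounded by the authors' filter, which kept genes with more than 1 CPM (reads scaled to library size alone) in at least 2 libraries.

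Ratios within a library do not depend on its scaling and give the balance among the members, as descriptions with SD over 4 libraries. BSG to SLC16A1 went from 3.73 ± 0.265 to 3.09 ± 0.151, with 3.34 as the lowest control and 3.24 as the highest SB-treated library. SLC16A1 to SLC16A7 went from 145 ± 7.77 to 86.7 ± 2.28 and SLC16A1 to SLC16A3 from 343 ± 66.7 to 186 ± 40.0. In all 3 ratios the groups did not overlap, where 61.5% of all genes had groups without overlap. For the ratio to SLC16A3 this is a description only, because the authors' filter kept that row only through SB-treated libraries. SLC16A1 still made up nearly all of the RPKM of the 4 proton-coupled transporters, 98.3% ± 0.0917 in the controls and 97.0% ± 0.178 with SB. Its share of the RPKM of all 12 SLC16 genes with a row went from 70.9% ± 0.726 to 66.9% ± 0.454.

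Other SLC16 genes also rose, and SLC16A11 and SLC16A12 had no row. SLC16A6 went from 1.77 ± 0.0938 to 3.26 ± 0.0620 RPKM (log2 fold change 0.62, limma adjusted p = 9.42e-07), which is more than any member. SLC16A8, the proton-coupled transporter of the retinal pigment epithelium, rose from 0.692 ± 0.0893 to 1.25 ± 0.0788 RPKM, and SLC16A4 from 1.80 ± 0.0887 to 2.47 ± 0.106 RPKM. SLC16A5 passed the test with groups that overlapped, 0.875 ± 0.0977 against 1.08 ± 0.116 RPKM (limma adjusted p = 0.0305).

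The partner glycoproteins did not follow BSG. NPTN stood at 25.8, 25.4, 24.7 and 23.9 RPKM in the controls and at 29.7, 30.3, 30.3 and 30.0 RPKM with SB. Every SB-treated library exceeded every control, with a log2 fold change of 0.26 (SE 0.035, limma adjusted p = 1.24e-04), and the ratio of BSG to NPTN went from 14.4 ± 1.14 to 9.04 ± 0.196. EMB stood at 14.6, 11.5, 11.1 and 10.9 RPKM in the controls and at 13.1, 13.0, 13.0 and 13.2 RPKM with SB. Control replicate 1 alone lay above the SB-treated libraries, and the other controls lay below all of them. EMB was not called with all libraries (log2 fold change 0.12, limma adjusted p = 0.194), and it was called without control replicate 1 (0.21, adjusted p = 5.43e-05). It was also called with all libraries after the GC and length correction (0.14, adjusted p = 0.00335) and without TMM factors (0.22, adjusted p = 0.0259). CD44 had no row.

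**Figure D4:**
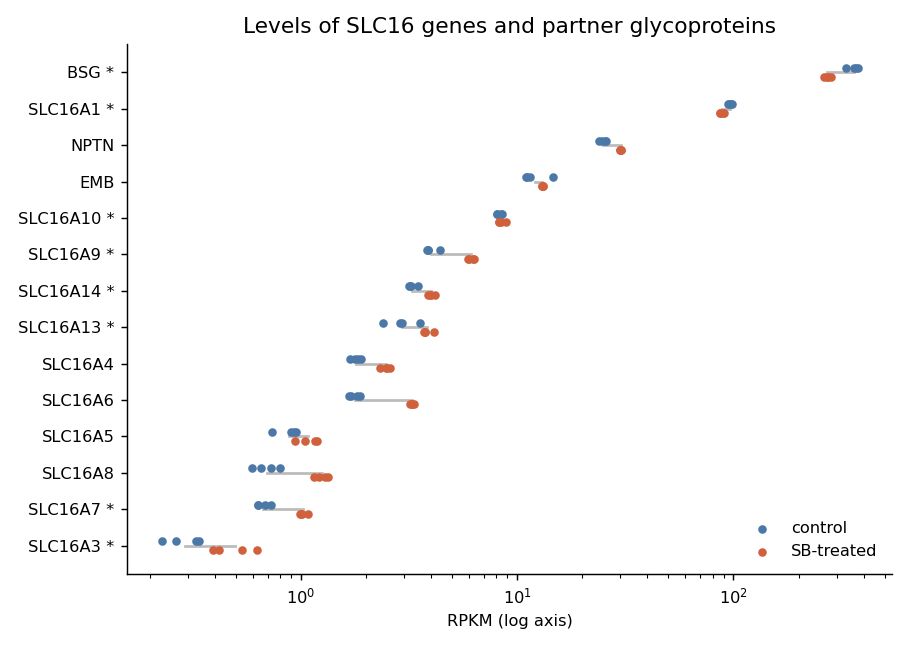
RPKM on a log axis of the members, SLC16A4, SLC16A5, SLC16A6, SLC16A8, NPTN and EMB, ordered by level, one point per library and a grey line between the group means (asterisks mark the 8 listed genes). BSG and SLC16A1 lie lower with SB, and most of the genes below 10 RPKM lie higher.

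Enzymes that make and use the transported acids mostly fell. Of 17 lactate and pyruvate enzymes with a row, 1 was higher, 13 were lower and 3 were not called. Over all genes 33.0% were higher and 32.6% lower. The median log2 fold change of the enzymes was −0.27, against 0.0045 over all genes. LDHA, the lactate dehydrogenase subunit that favours lactate formation, fell from 382 ± 20.3 to 208 ± 3.52 RPKM (log2 fold change −0.87, limma adjusted p = 4.39e-07). LDHB, the subunit that favours pyruvate, fell from 678 ± 9.93 to 523 ± 7.15 RPKM (−0.37, adjusted p = 6.56e-06). PDK1, a kinase that inactivates pyruvate dehydrogenase, fell from 9.08 ± 0.631 to 4.64 ± 0.198 RPKM (−0.84, adjusted p = 1.08e-06). With GC content and length corrected, LDHB was at −0.18, LDHA at −0.76 and PDK1 at −0.87, all called. Without TMM factors 3 of the 17 enzymes were higher and 10 lower. LDHA thus fell by a larger log2 step than either BSG or SLC16A1.

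Other carriers of carboxylates and organic anions were split, with 4 higher and 3 lower of 7 that had a row and 9 without a row. The shares over all genes were 33.0% higher and 32.6% lower. MPC1 and MPC2, which form the mitochondrial pyruvate carrier, fell from 40.2 ± 2.67 to 31.9 ± 0.995 and from 26.7 ± 2.81 to 20.4 ± 0.638 RPKM (log2 fold changes −0.32 and −0.36). With GC content and length corrected these were −0.09 and −0.25. SLC13A3, a carrier of dicarboxylates, rose from 0.808 ± 0.114 to 1.37 ± 0.0252 RPKM (log2 fold change 0.40, limma adjusted p = 5.26e-05, and 1.71-fold by voom). SLC5A8, the sodium-coupled monocarboxylate transporter, was among those without a row.

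Proton handling is tied to MCT transport, and of 8 such genes with a row 0 were higher, 4 were lower and 4 were not called. Over all genes 65.6% were called, 33.0% higher and 32.6% lower, so this list was called less often than the table. CA2, a cytosolic carbonic anhydrase, fell from 342 ± 8.50 to 149 ± 1.28 RPKM (log2 fold change −1.20, limma adjusted p = 4.65e-08). CA14, a membrane-bound carbonic anhydrase, fell from 1.07 ± 0.101 to 0.620 ± 0.109 RPKM, a log2 fold change of −0.36 on log2(RPKM + 1) and of −0.80 by voom on the recovered reads. The median of this list was −0.09, and without TMM factors it was 0.0027 with 3 lower.

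Glucose carriers and hypoxia-responsive genes showed 0 higher, 7 lower and 4 not called of 11, with a median log2 fold change of −0.24. Over all genes 65.6% were called, 33.0% higher and 32.6% lower, so the share called was near that of the table. Without TMM factors 5 were lower and 6 not called, with a median of −0.13. Without control replicate 1, 9 were lower and 2 not called, with a median of −0.19. Over all genes 5459 were then higher and 5511 lower. SLC2A3, a glucose transporter, fell from 11.9 ± 0.159 to 6.66 ± 0.319 RPKM (−0.76, limma adjusted p = 5.19e-07). EGLN3, a prolyl hydroxylase that acts on hypoxia-inducible factors, fell from 5.15 ± 0.383 to 2.86 ± 0.163 RPKM (−0.67, adjusted p = 4.82e-06). BNIP3 and P4HA1 had log2 fold changes of −0.24 and −0.16, and both lost their calls without TMM factors (−0.13, adjusted p = 0.0738, and −0.05, adjusted p = 0.347). With GC content and length corrected, BNIP3 was at −0.03 and not called (adjusted p = 0.435), and P4HA1 was at −0.07 and called (adjusted p = 0.0376). SLC16A3 is known as a target of hypoxia-inducible factors and was higher with SB, on few reads and in a row kept only through SB-treated libraries. Its call was lost after the GC and length correction (limma adjusted p = 0.0503). A link of these changes to hypoxia-inducible factors was not tested.

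Of 10 regulators linked to these transporters, 2 were higher, 6 were lower and 2 were not called, where 33.0% of all genes were higher and 32.6% lower. MYC, a transcription factor that can bind the E-box, fell from 131 ± 4.80 to 93.0 ± 1.29 RPKM (log2 fold change −0.49, limma adjusted p = 3.56e-06). PPARA, a nuclear receptor for fatty acids, rose from 1.98 ± 0.153 to 3.92 ± 0.0989 RPKM (0.72, adjusted p = 1.12e-06). Without TMM factors 2 regulators were higher and 4 lower. Genes of benzoate activation and glycine conjugation were nearly all without a row, 10 of 11, GLYAT and ACSM2B among them. The remaining gene, ACSM3, stood at 1.61 ± 0.169 and 1.44 ± 0.0185 RPKM and was not called (adjusted p = 0.106).

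**Figure D5:**
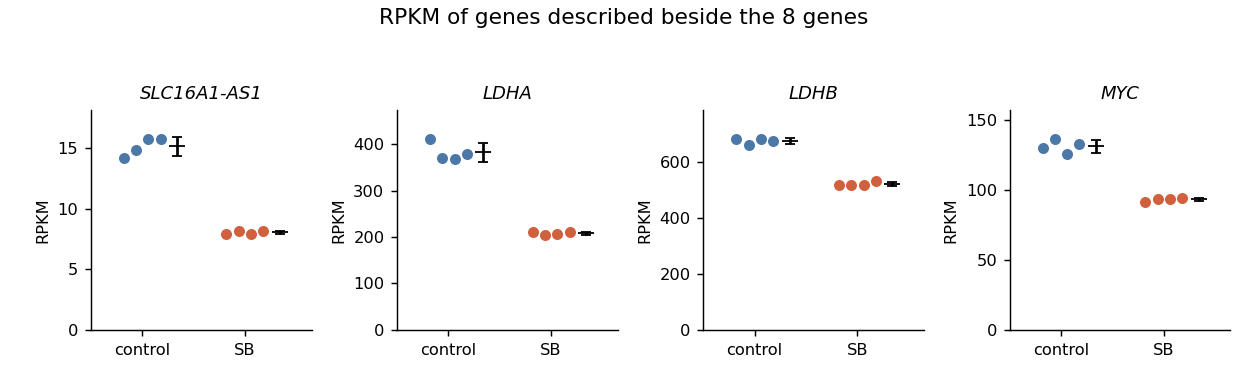
RPKM (vertical axes, each from 0) of SLC16A1-AS1, LDHA, LDHB and MYC in the 4 control and 4 SB-treated libraries, with group mean and SD. All 4 genes lie lower in every SB-treated library, and LDHA and SLC16A1-AS1 are farthest from their controls.

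The genes most like 3 of the members over the 8 libraries were found by Pearson's r of log2(RPKM + 1), as a description, since the libraries share treatment and depth. SLC16A1 was most like BPGM (r = 0.994), TBL1XR1 (0.991) and NECAP1 (0.990), and 2136 genes had an r above 0.9 with it. BSG was most like PFN1 (0.999), PRDX5 (0.998) and APRT (0.998), among 2070 genes above 0.9. SLC16A3 had 66 such genes, led by NOSTRIN (0.974), LINC00858 (0.965) and ZNF154 (0.954).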

How the data were processed

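The 8 samples were grouped by the titles GEO holds (4 control, 4 SB-treated). The authors prepared stranded total RNA libraries, mapped reads to hg38 with TopHat2 2.1.0, counted them per gene with featureCounts 1.5.0 and used edgeR 3.16.5, keeping genes above 1 CPM in at least 2 samples and scaling with TMM (versions from the submitters' processing notes). The authors deposited RPKM per gene and library. Their own fold change, mean log2 CPM, p-value and FDR columns were not used, and 0 columns of per-sample values were left out. The ChIP-seq data were not analysed here.

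Here limma 3.58.1 in R 4.3.3 was fitted to log2(RPKM + 1), with no further filter and Benjamini-Hochberg adjustment over 14526 genes. Because the values are RPKM, the count test of the study's methods was not used. Low values gave the worth of a single read, by which 100% of genes came out as whole reads, within 0.01 of a whole number (Python 3.11.15), and voom in limma called 4864 genes higher and 4758 lower on them. Where several read totals were possible for a gene the smallest was used, so that a few genes may be held at a fraction of their reads. The scripts were tested on simulated data. Single genes had an exact two-sided permutation test.

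The members and lists were chosen with earlier results of these data known. Beside the members, the text names every family and partner gene with a row and, of each other list, the 2 genes with the highest mean RPKM and the 2 with the largest called log2 fold change, and the 3 genes most like SLC16A1, SLC16A3 and BSG. Some genes under this rule are not reported here. Positions and overlaps are from GENCODE release 44 on hg38, and promoter sequences from RefSeq. The design text calls the replicates biological, without saying how cultures were separated, so p-values measure only the spread between these samples. Alternatives were scaling without TMM or by median of ratios, a pseudocount of 0.1, at least 10 reads in every sample, voom, an intensity trend, a correction for GC content and length (13290 genes), the replicate block and leaving out each sample.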

Additional observations from a re-analysis of the deposited data

Results flagged for a closer look

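In 4 of the 66 groups of 4 libraries examined, the gap between an extreme library and its nearest neighbour, as a share of the group's whole range on the log2(RPKM + 1) scale, exceeded the 95% limit of Dixon's test for 4 samples. Chance gives about 3.3. Control replicate 1 was the highest control for SLC16A9, with a share of 0.881, and for EMB, with 0.839. SB-treated replicate 2 was the highest SB-treated library for SLC16A13 with 0.901, and SB-treated replicate 4 for LDHB with 0.905. The call of EMB changed without control replicate 1, and those of SLC16A9 and SLC16A13 did not change without the library that lay apart.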

How the results depend on the processing

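Over 19 alternatives for each of the 8 genes, 147 of 152 log2 fold changes kept their direction and side of the threshold, 2 lost the call, 3 gained it and 0 reversed. The counts of genes higher and lower stayed within 1.5 times their reported values under each of the alternatives. Without TMM factors SLC16A1 lost its call (−0.0255) and SLC16A10 gained one (0.12), while 65.1% of the called genes were higher (6253 against 3357), against 50.2% with TMM factors. With the GC and length correction SLC16A10 gained a call (0.13) and SLC16A3 lost it (0.15), and with that correction and the replicate block SLC16A10 was again called (0.13, adjusted p = 0.0280). The cause was not tested. With a pseudocount of 0.1 the log2 fold change was 0.60 for SLC16A3 and 0.54 for SLC16A7.

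With the replicate number as a block alone, 4885 genes were higher and 4894 lower, and the log2 fold change of BSG was −0.40 with its call kept. No member's call changed. Same-numbered samples deviated from their group means with correlations of 0.38, 0.327, 0.173 and −0.16. Samples with different numbers were not compared, so these values do not show whether the numbers pair samples. The main fit took no pairing. When each sample was left out in turn, no member's call changed, BSG ranged from −0.44 to −0.38 and SLC16A1 from −0.14 to −0.12, and genes higher ranged from 4311 to 5459 and lower from 4285 to 5511. Voom with the block and voom without control replicate 1 were added after seeing the data, as were the counts of the other lists under each setting. Depth limits SLC16A3 most, with 23 to 62 reads per library.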
